A study of Penicillium oxalicum with 6 samples.

Results

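The stretch from POX03850 to POX03880 is a set of consecutive gene identifiers of the filamentous fungus Penicillium oxalicum, in which most of the genes measured had lower transcript levels in a strain without POX00158. Its members were chosen by identifier number alone, from POX03850 to POX03880 inclusive, and the limits of the stretch were set after the difference between the strains had been seen. Of 31 possible identifiers, 28 are listed in at least 1 library, out of 9284 genes listed in the whole series. POX03853, POX03872 and POX03876 are listed in none. Enough reads for a test were found for 21 of the 28 genes. Because the contrast between the strains marked out the stretch, fold changes and calls of its genes on that contrast are given as a description and do not stand as independent evidence. Adjusted p-values are printed only where another fit of the data changed a call.

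Mycelium of 2 strains was sampled by RNA sequencing, with 3 libraries per strain. MuPOX00158 is the strain in which the gene POX00158, described by the submitters as a phosphokinase gene, is deleted, and the comparison strain Ku70, also written MuKu70, is a mutant of Ku70 per its label. The Ku70 protein binds broken DNA ends for their joining, and its loss makes targeted gene replacement easier in many fungi. Whether MuPOX00158 also carries the Ku70 mutation is not stated in the labels, nor how many transformants each strain stands for. According to the labels, hyphae of either strain were shaken for 24 h in liquid medium with 1% Avicel, a microcrystalline cellulose. Separate cultures for the 3 libraries are not mentioned in the labels, so p-values rest on a spread between libraries that may be technical only. Markers of mycelium were not analysed here, since the identifiers come without gene names.

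In filamentous fungi, genes that serve one pathway, in particular the making of secondary metabolites, often lie side by side on a chromosome and are expressed together. Gene identifiers are commonly numbered along the assembly, so runs of identifiers are a first look at such neighbourhoods. Here the genomic positions, products and roles of the 28 genes are not annotated in the sources used, and nothing below assigns a function to any of them. In bulk mycelium, fewer hyphae expressing a gene and less RNA per hypha cannot be told apart.

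The libraries held 2983815 to 3259601 expected counts, and POX00158 itself had 4, 8 and 9 reads in the MuPOX00158 libraries against 1067, 569 and 763 in the Ku70 libraries. No count of the 28 genes was fractional, whereas reads divided between similar sequences would give fractional counts. Levels of single genes are given as FPKM, the deposited value scaled by gene length and library size. FPKM lacks the further scaling of the libraries that enters CPM and the log2 fold changes. Its factors run from 0.915 (Ku70 replicate 2) to 1.06 (MuPOX00158 replicate 3), so gaps in FPKM can differ somewhat from the fold changes beside them. Sums over genes are given as CPM, reads per 1000000 after scaling of the libraries.

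Of the 21 tested genes, 15 fell, 1 rose and 5 did not pass the test (edgeR quasi-likelihood test over all genes, adjusted p below 0.05). Among all 7757 genes tested, 18.6% were lower and 18.6% were higher by the same rule. A decrease of at least 2-fold was found for 13 of the 21, against 12.4% of all genes. Every MuPOX00158 library lay below every Ku70 library for 16 of the 21, against 24.2% of all genes. The stretch was taken for its decrease, so these shares carry no evidence of their own. The median log2 fold change, MuPOX00158 over Ku70, was -1.13 over the 21 genes and 0.00029 over all genes tested.

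The 11 genes of 2 runs of decreases held 76.2% of the net summed decrease of the stretch in CPM. They were picked for their decreases in these same libraries, so a large share is favoured by that choice. A falling group was taken as at least 3 tested genes, next to each other in identifier order, that each passed the test and were lower by 2-fold or more. The first falling group holds POX03856, POX03857, POX03860, POX03861, POX03862 and POX03863. The second holds POX03869, POX03870, POX03871, POX03873 and POX03874. POX03858 and POX03859, which lie inside the span of the first group, had 3 to 12 reads per library and were not tested. Of the 11 genes, 10 passed the test in each of 14 other fits of the data, and the exception was POX03856. The 2-fold part of the rule was less secure. POX03860 was lower by less than 2-fold with plain library sizes, without a filter, in both limma fits and without MuPOX00158 replicate 1 or Ku70 replicate 2 (log2 fold change -0.996 to -0.909). In those fits the first run would break at POX03860, and POX03856 and POX03857 would be too few for a group. In the planned fit POX03860 lay just inside the 2-fold rule with a log2 fold change of -1.01. POX03865 and POX03866, which follow the first group among the tested genes, passed the test but were clearly outside the 2-fold rule, at -0.54 and -0.77.

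**Figure D1:**
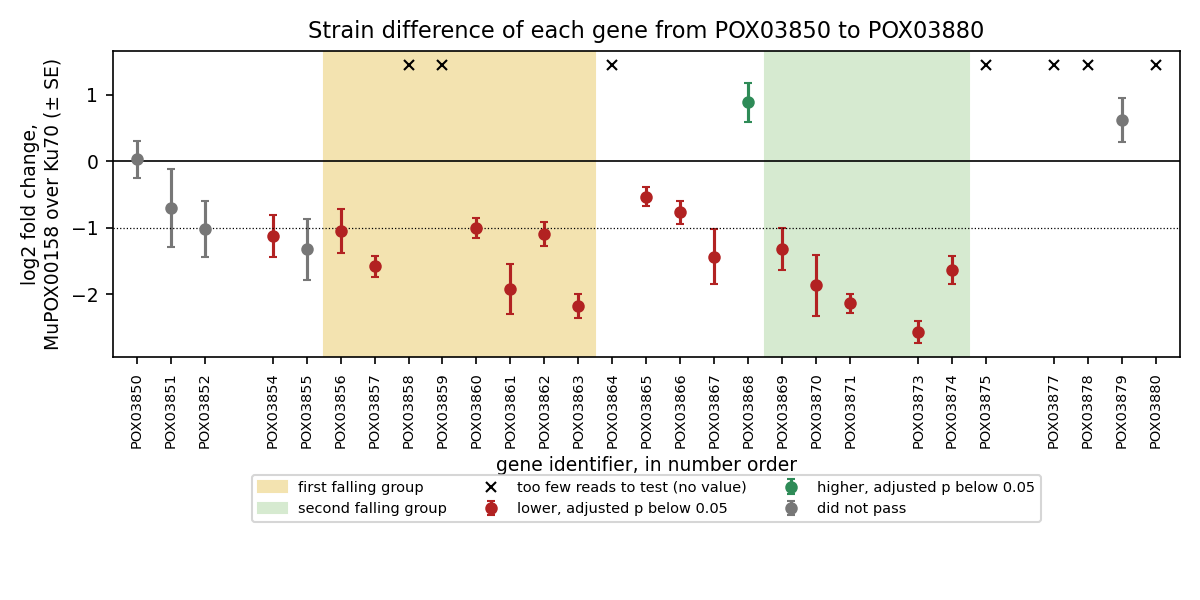
Log2 fold change of MuPOX00158 over Ku70 with its standard error for each of the 21 tested genes, in identifier order, with the 2 falling groups shaded, the 2-fold line dotted and the 7 untested genes marked by crosses that carry no value. The lowest point is POX03873 at -2.57, and the only gene past the test on the higher side is POX03868 at 0.88.

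Summed over the 28 genes, the level was 1562, 1586 and 1639 CPM in Ku70 replicates 1, 2 and 3 and 655, 757 and 666 CPM in MuPOX00158 replicates 1, 2 and 3. The stretch thus kept 43.4% of its Ku70 level in MuPOX00158. Means were 1596 ± 39.1 CPM in Ku70 and 693 ± 55.9 CPM in MuPOX00158 (SD, n = 3 each). The 6 genes of the first group summed to 535 ± 56.5 CPM in Ku70 and 209 ± 20.3 CPM in MuPOX00158, or 39.1% of the Ku70 level. The 5 genes of the second group dropped further, from 457 ± 38.8 to 95.8 ± 7.89 CPM, or 21.0% of the Ku70 level. The genes between the groups summed to 337 ± 35.0 CPM in Ku70 and 217 ± 11.5 CPM in MuPOX00158, which is 64.4% of the Ku70 level. In each of these 3 parts the libraries of the strains stood apart.

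**Figure D2:**
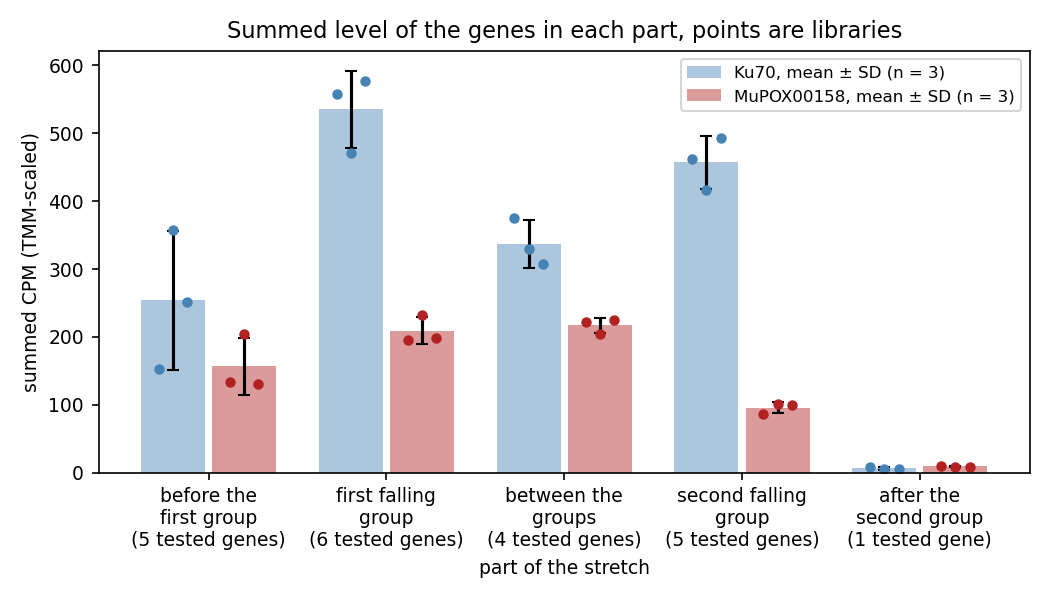
Summed CPM of the genes in each part of the stretch (bars show means, error bars SD over 3 libraries, points single libraries). Untested genes are included, except POX03858 and POX03859 inside the span of the first group, which are in no bar. Ku70 and MuPOX00158 libraries are separate in both falling groups and between them, whereas before the first group the MuPOX00158 libraries, from 131 to 205 CPM, overlap the Ku70 libraries, from 153 to 358 CPM, although each is below the Ku70 library of the same letter.

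Within the first group, POX03862 had the highest level of the whole stretch in both strains. It stood at 315, 223 and 315 FPKM in Ku70 replicates 1, 2 and 3, and at 122, 157 and 137 FPKM in MuPOX00158. Its mean ranked 556th of 9284 genes in Ku70 and 1203rd in MuPOX00158. All 3 MuPOX00158 libraries were below all 3 Ku70 libraries, and the log2 fold change was -1.10 (SE 0.18). Despite the decrease POX03862 remained in MuPOX00158 above every other gene of the stretch.

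POX03863 had the largest decrease of the first group. Its Ku70 libraries read 132, 91.2 and 139 FPKM, and its MuPOX00158 libraries 29.1, 30.0 and 24.5 FPKM. The log2 fold change was -2.18 (SE 0.19), and 22.1% of the Ku70 level was left, as mean CPM. POX03862 and POX03863 have adjoining identifiers and kept 46.7% and 22.1% of their Ku70 levels, a difference that was not tested.

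POX03857 was at 102, 92.0 and 104 FPKM in Ku70 and at 36.9, 30.3 and 37.5 FPKM in MuPOX00158. By CPM its coefficient of variation in Ku70 was 0.965%, the lowest of the first group, against a median of 19.3% for all tested genes. That value rested on 144, 135 and 148 reads, whose counting error alone is larger, so it does not show a steadier level. By FPKM POX03860 varied less (75.9 ± 4.10 against 99.4 ± 6.51 FPKM, SD, n = 3 each). POX03857 had a log2 fold change of -1.58 (SE 0.16). POX03860 was at 71.4, 79.4 and 76.9 FPKM in Ku70 and at 38.8, 39.2 and 41.9 FPKM in MuPOX00158. With a log2 fold change of -1.01 (SE 0.15), POX03860 had the smallest decrease of the group, and the gap between the strains was wider than the spread within either.

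The other 2 genes of the first group were weak. POX03861 varied among the Ku70 libraries, at 20.5, 11.3 and 25.1 FPKM, and was at 3.44, 7.32 and 4.76 FPKM in MuPOX00158. Its lowest Ku70 library was still above its highest MuPOX00158 library, and the log2 fold change was -1.92 (SE 0.38). POX03856 had 24, 33 and 39 reads in Ku70 and 15, 22 and 11 in MuPOX00158, equal to 6.51, 8.58 and 10.4 FPKM against 4.17, 5.64 and 3.01 FPKM. Here the strains nearly touched, and the log2 fold change of -1.05 (SE 0.33) no longer passed the test when the library letter was added as a replicate block (edgeR adjusted p = 0.0531) or without MuPOX00158 replicate 1 or 3 or Ku70 replicate 2 or 3 (adjusted p = 0.0876 to 0.136). Without it the first group would start at POX03857.

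The second group held the gene with the largest decrease of the stretch. POX03873 read 157, 133 and 183 FPKM in Ku70 and 24.6, 29.3 and 29.7 FPKM in MuPOX00158. Its log2 fold change was -2.57 (SE 0.17), which left 16.8% of the Ku70 level. It ranked 1002nd of all genes by mean FPKM in Ku70 and 4779th in MuPOX00158. POX03871 was at 121, 99.2 and 123 FPKM in Ku70 and 24.8, 28.2 and 29.1 FPKM in MuPOX00158. The log2 fold change of POX03871 was -2.14 (SE 0.15), and 22.7% of the Ku70 level was left.

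POX03874 was weaker, at 26.8, 29.3 and 28.8 FPKM in Ku70 and 6.92, 10.5 and 11.4 FPKM in MuPOX00158. Its libraries did not overlap, and the log2 fold change was -1.63 (SE 0.21). POX03870 had the widest spread of the 11 genes in Ku70, at 20.7, 6.33 and 11.4 FPKM, so that its highest Ku70 library exceeded the lowest by 2.98-fold in CPM. In MuPOX00158 POX03870 was at 4.44, 2.15 and 4.37 FPKM, below all Ku70 libraries, with a log2 fold change of -1.87 (SE 0.46). POX03869 was the weakest gene of the group per length, at 5.05, 3.08 and 3.85 FPKM in Ku70 and 1.98, 1.91 and 1.11 FPKM in MuPOX00158. Its log2 fold change was -1.32 (SE 0.31).

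**Figure D3:**
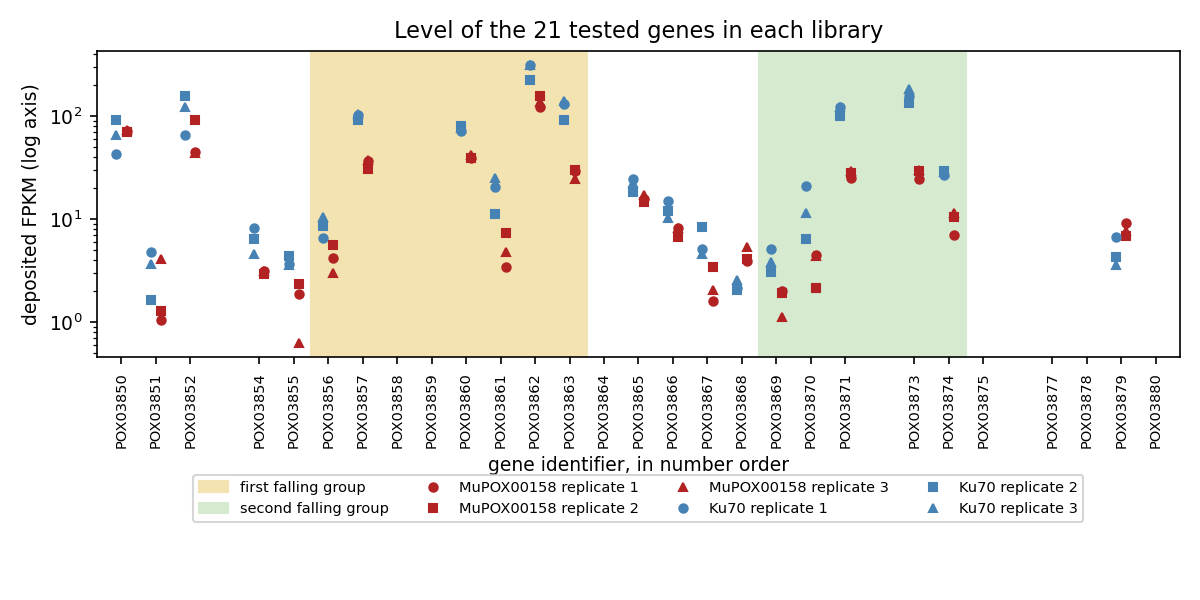
Deposited FPKM of the 21 tested genes in each of the 6 libraries, on a log axis, in identifier order, with the falling groups shaded. Within the groups the Ku70 points lie above the MuPOX00158 points for all 11 genes, whose Ku70 means run from 3.99 FPKM (POX03869) to 284 FPKM (POX03862).

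The Ku70 libraries were not alike within these groups. Ku70 replicate 2 was the lowest Ku70 library, by CPM, for 8 of the 11 genes and Ku70 replicate 3 for none. Ku70 replicate 3 was the highest for 6 of the 11. In MuPOX00158, replicate 1 was the lowest for 6 genes and replicate 2 the highest for 6. These counts were not made over all tested genes, so the order is not shown to be particular to the groups. The sums of the first group were 558, 471 and 577 CPM in Ku70 replicates 1, 2 and 3, and those of the second 462, 416 and 493 CPM, so that both sums were lowest in replicate 2. These differences were smaller than the gap to MuPOX00158, where the highest sums were 233 CPM and 101 CPM.

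Between the groups lie POX03864 to POX03868, which include the longest genes of the stretch. The count and the FPKM of a gene together imply its effective length, the number of positions at which a sequenced fragment can start. For POX03866 it was 12237 bases, rank 8 from the longest of 8997 genes with such a value, and for POX03865 it was 7553 bases, ranked 30th. The 26 members with a value had a median of 1143 bases, the same as the 1144 bases over all genes to within 1 base. Of the other members with a value, POX03869 alone exceeded 3000 bases, at 3543. The lengths do not depend on the contrast between the strains.

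**Figure D4:**
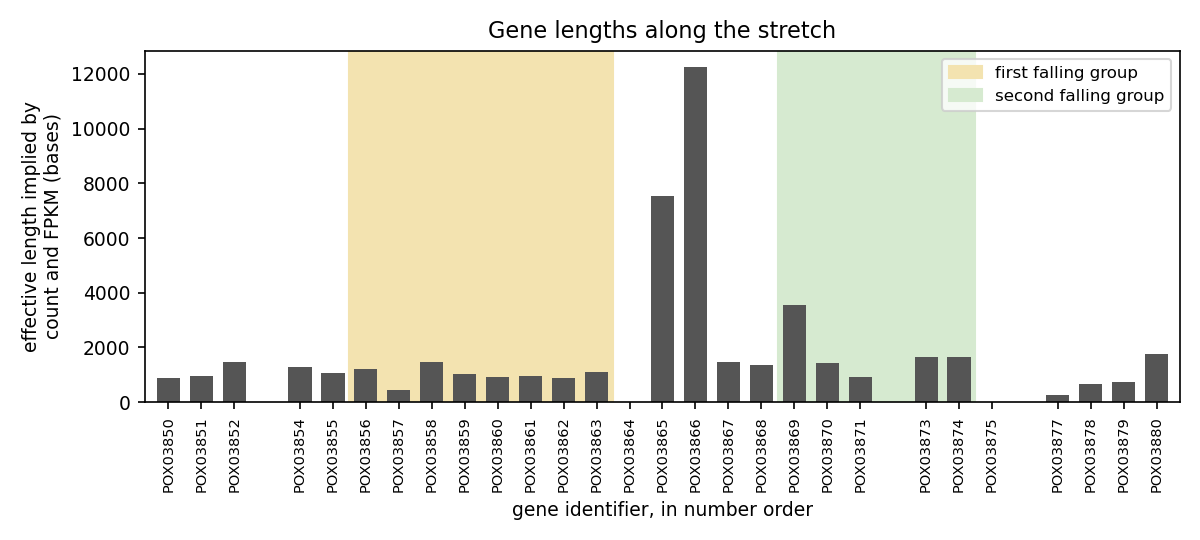
Effective length in bases implied by the deposited count and FPKM for the 26 members with an FPKM of at least 1 in some library, in identifier order, with the falling groups shaded. POX03865 and POX03866, at 7553 and 12237 bases, stand between the groups. The other genes run from 277 bases (POX03877) to 3543 bases (POX03869), and the median of the 26 is 1143 bases.

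Both long genes fell, by less than 2-fold. POX03865 had 568, 446 and 536 reads in Ku70 and 356, 362 and 392 in MuPOX00158, equal to 24.5, 18.4 and 22.5 FPKM against 15.8, 14.7 and 17.0 FPKM. The libraries of the strains stood apart, and the log2 fold change was -0.54 (SE 0.14). That decrease did not pass the test in 7 of the 14 other fits, among them plain library sizes (edgeR adjusted p = 0.0593) and the fits without any one MuPOX00158 replicate or without Ku70 replicate 3 (0.0614 to 0.0821). POX03866, described although the naming rule did not select it, had 558, 468 and 397 reads in Ku70 and 297, 268 and 302 in MuPOX00158. Its FPKM was 14.9, 11.9 and 10.3 in Ku70 and 8.12, 6.73 and 8.08 in MuPOX00158, with a log2 fold change of -0.77 (SE 0.17). Its call was lost in limma on log2(FPKM + 1) and log2(FPKM + 0.1) (adjusted p = 0.0518 and 0.0563). By reads POX03865 and POX03866 were at ranks 4 and 5 of the stretch in Ku70, at 169 and 156 CPM, but per length, by FPKM, POX03865 was at rank 10.

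The remaining genes between the groups were weak and went in different directions. POX03868, next to the second group, was the only gene of the stretch that passed the test as higher in MuPOX00158. It had 9, 9 and 11 reads in Ku70 and 16, 18 and 22 in MuPOX00158, or 2.14, 2.06 and 2.57 FPKM against 3.91, 4.05 and 5.29 FPKM. The libraries did not overlap, and the log2 fold change was 0.88 (SE 0.29). POX03868 was tested in 13 of the 14 other fits, since the stricter filter removed it, and the call did not hold in 10 of them, including the replicate block (edgeR adjusted p = 0.0744) and the removal of any 1 library (0.0781 to 0.163). POX03867, also outside the naming rule, fell from 5.15, 8.37 and 4.61 FPKM in Ku70 to 1.61, 3.39 and 2.03 FPKM in MuPOX00158 (log2 fold change -1.44, SE 0.41). That call was lost without MuPOX00158 replicate 1 or 3 or Ku70 replicate 2 (edgeR adjusted p = 0.0836 to 0.102). POX03864 had at most 2 reads in any library and was not tested.

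Ahead of the first group are 5 listed genes, POX03850 to POX03855, of which 1 fell and 4 did not pass. Their median log2 fold change was -1.02, and 4 of the 5 had a negative one. In sum they were at 153, 358 and 251 CPM in Ku70 replicates 1, 2 and 3 and at 134, 205 and 131 CPM in MuPOX00158, or 61.7% of the Ku70 level. The strains overlapped, but within each pair of libraries of the same letter the MuPOX00158 sum was the lower one. With the replicate block 2 of the 5 passed as lower, POX03852 and POX03854 (edgeR adjusted p = 0.0141 and 0.0388). The gene next to the group, POX03855, was at 3.66, 4.39 and 3.59 FPKM in Ku70 and 1.87, 2.31 and 0.62 FPKM in MuPOX00158. Its strains did not overlap, but it rested on 2 to 15 reads per library, and the log2 fold change of -1.33 (SE 0.46) missed the threshold. It passed with upper-quartile scaling (edgeR adjusted p = 0.0480) and in limma on log2(FPKM + 1) (adjusted p = 0.0468). The 1 gene that fell was POX03854, also outside the naming rule, from 8.18, 6.38 and 4.52 FPKM in Ku70 to 3.15, 2.90 and 3.10 FPKM in MuPOX00158. Its log2 fold change was -1.13 (SE 0.32), and the call was lost in 5 of the 6 fits that left out 1 library (edgeR adjusted p = 0.0648 to 0.0853), the exception being that without Ku70 replicate 3.

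POX03850 and POX03852, likewise outside the naming rule, varied widely among the Ku70 libraries. POX03852 was at 65.0, 156 and 122 FPKM in Ku70 replicates 1, 2 and 3 and at 44.2, 91.4 and 43.7 FPKM in the MuPOX00158 replicates. In both strains replicate 2 was the highest, and the strains overlapped. The log2 fold change of -1.02 (SE 0.41) did not pass, yet beside the block it passed in DESeq2 (adjusted p = 0.0382), without MuPOX00158 replicate 2 (edgeR adjusted p = 0.0298) and without Ku70 replicate 1 (0.0159). POX03850 was at 42.4, 90.5 and 65.2 FPKM in Ku70 and steady at 71.5, 70.3 and 73.7 FPKM in MuPOX00158, with a log2 fold change of 0.03 (SE 0.28). Both genes had the order replicate 1, replicate 3, replicate 2 from low to high in Ku70, as had POX03860 and POX03874 of the falling groups, whereas the sums of both groups were lowest in replicate 2. POX03851 had 3 to 14 reads per library and a log2 fold change of -0.70 (SE 0.59) that did not pass.

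After the second group the 5 listed genes had 0 to 20 reads per library. POX03875 had 0, 1 and 1 reads in Ku70 and POX03877 had 0, 2 and 0, and both had no read in MuPOX00158. With no read in the 3 MuPOX00158 libraries, a level of up to 0.315 CPM is possible (3 reads over the group, counting error only), which is above the Ku70 mean of both genes, so that no difference was detectable at this depth. POX03878 had 11, 3 and 2 reads in Ku70 and 8, 9 and 6 in MuPOX00158, and POX03880 had 0, 0 and 6 against 4, 5 and 5. Neither was tested. POX03879, the only tested gene here, was at 6.70, 4.30 and 3.53 FPKM in Ku70 and 9.16, 6.79 and 7.71 FPKM in MuPOX00158. Its MuPOX00158 libraries lay just above those of Ku70, and the log2 fold change of 0.62 (SE 0.33) did not pass.

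Ordered by mean FPKM in Ku70, the leading genes were POX03862 (284 ± 53.3 FPKM), POX03873 (158 ± 25.3 FPKM), POX03863 (121 ± 25.8 FPKM), POX03871 (115 ± 13.4 FPKM), POX03852 (114 ± 46.0 FPKM) and POX03857 (99.4 ± 6.51 FPKM, SD, n = 3 each). Of these 6 genes, 5 belong to a falling group. Membership of a group requires a level in Ku70 above that in MuPOX00158, so a ranking by Ku70 favours its genes. By mean FPKM in MuPOX00158 the leading genes were POX03862 (139), POX03850 (71.8) and POX03852 (59.8). POX03850 and POX03852 belong to neither group. The lowest Ku70 library of POX03862 was above every Ku70 library of the other members, whereas the Ku70 libraries of POX03863, POX03871 and POX03852 overlapped each other. The median of the 28 genes in Ku70 was 7.43 FPKM, against 26.4 FPKM over all listed genes.

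Neither gene just outside the stretch fell. POX03849, just before it, had 2, 4 and 5 reads in Ku70 and 382, 366 and 478 in MuPOX00158, that is 0.79, 1.52 and 1.95 FPKM against 155, 137 and 192 FPKM. The change is thus in the opposite direction to that of the falling groups, with a log2 fold change of 6.70 (SE 0.28), and 5 listed identifiers separate it from POX03856. POX03881, just after the stretch, was at 62.5, 64.0 and 49.7 FPKM in Ku70 and 64.1, 60.5 and 68.6 FPKM in MuPOX00158, with overlapping libraries and a log2 fold change of 0.05 (SE 0.16).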

How the data were processed

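Messenger RNA was sequenced from mycelium of 3 MuPOX00158 and 3 Ku70 libraries. The authors deposited 1 table per library, with an expected count per gene and an FPKM value per gene, per the file headers. The submitters' processing notes name DESeq2, BWA 0.7.10-r789, RSEM 1.2.12 and Bowtie2 2.1.0, with no role for each. The build, annotation and strand setting were not given in the sources used here. Genes without a read are not listed, and a missing gene was taken as 0. Library totals were 2983815 to 3259601 expected counts, and 3 reads in 1 library equal 0.918 to 1.02 CPM, counting error only.

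The rounded expected counts entered edgeR 4.0.16 under R 4.3.3 (quasi-likelihood test, strain as the only term, TMM factors, Benjamini-Hochberg adjustment). Genes were kept by filterByExpr with a minimum count of 10 and a minimum total of 15, which left 7757. Standard errors (SE) of log2 fold changes are their sizes divided by the square root of F. The code was checked on data with known changes. Alternatives were other scalings, filters and thresholds, DESeq2 1.42.0, limma 3.58.1 on log2(FPKM + 1) and log2(FPKM + 0.1), the library letter as a replicate block, and leaving out each library. Deviations from the strain means correlated at 0.15, 0.22 and 0.16 between libraries of the same letter (F, S or T in the titles) over tested genes. Between libraries of different letters they correlated at -0.18 to 0.03. The letters were therefore tried as a pairing of the libraries, but only in the replicate block. Calls, fold changes and SEs given without a named alternative come from the fit that ignores this possible pairing. Replicate numbers follow the order of deposition and coincide with these letters.

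Effective lengths are expected count × 1000000000 / (FPKM × library total), as the median over libraries with an FPKM of at least 1. Between libraries these lengths differed by a nearly constant shift, up to 15.6 bases in the median against the first MuPOX00158 library over 682 genes with at least 500 reads in each library.

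The members, the lists and the naming rule were chosen with earlier results of these data known. The rule named the genes of the falling groups, the tested genes beside them, any gene higher by 2-fold or more (none), the gene with the highest level in each strain and the genes just outside the stretch. Other genes described were added after their values were seen. RefSeq locus tags of this species were not used, because they are numbered differently from the files, and no position or sequence is given.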

Additional observations from a re-analysis of the deposited data

How the results depend on the processing

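The count of 15 lower genes was 13 to 16 under the other scalings, filters, limma, DESeq2 and the replicate block (15), and 11 to 15 without any 1 library; it was 13 with a 2-fold minimum and 8 at an adjusted p below 0.01, a stricter threshold by construction. Counts over all tested genes moved too, with 1446 of 7757 lower in the planned fit. Without 1 library they ran from 978 of 7874 (without MuPOX00158 replicate 3) to 1707 of 7835 (without Ku70 replicate 1). How many of all genes were lower in every fit was not counted. Of the 15, 10 remained lower in all 14 other fits, all of them in a falling group. The groups were formed from the larger decreases in these same libraries, so this overlap is favoured by the rule and does not support the groups. The 1 higher gene passed with plain library sizes and in both limma fits, and the count was 0 with upper-quartile factors, DESeq2, no filter, the stricter filter, the block, at an adjusted p below 0.01, with a 2-fold minimum and without any 1 library (0 to 0), where at an unadjusted p below 0.05 edgeR gave 1 and DESeq2 0. The median log2 fold change was -0.92 in limma on log2(FPKM + 1) and -1.02 in limma on log2(FPKM + 0.1). With plain library sizes it was -1.05, against -1.13 in the planned fit. It was -1.39 with the stricter filter, which left 16 of the genes, and -1.38 to -1.07 without any 1 library. The summed levels of the stretch and of both groups moved by less than the spread between replicates in every setting run. That spread was taken as the combined SD of both strains on the log2 scale. For the settings without 1 library this says nothing about stability, because leaving out 1 of 3 libraries moves a mean by less than their SD in any case. All 11 genes of the groups were lower by 2-fold or more in the planned fit, and 8 to 11 in the others (8 in limma on log2(FPKM + 1), and the cause was not tested). Plain library sizes shifted the median of all genes to 0.08 and the limma fits to 0.09 and 0.10. The 15 genes of the stretch under the naming rule gave 207 comparisons, and the genes just outside it were not compared. Of the 207, 183 kept their side of the threshold, 22 lost a call, 2 gained one and none reversed. The block changed the calls of POX03852, POX03856 and POX03868 and of no other gene of the stretch. Depth limits the 7 untested genes, which had 0 to 12 reads per library.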
